A study of Rattus norvegicus with 48 samples.

Results

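Fatty acid synthesis genes were followed in liver and testis of rats given the triazole fungicide myclobutanil. They are Srebf1 (ENSRNOG00000003463), Acly (ENSRNOG00000016924), Acaca (ENSRNOG00000034013), Fasn (ENSRNOG00000045636) and Scd (ENSRNOG00000013552), chosen by these identifiers, 5 of the 32545 genes counted. The names come with the list, since the rat annotation at hand carries no Ensembl identifiers that could contradict or bear out an identifier. All 5 names are rat gene symbols in RefSeq, and Scd is also listed there as an alternative name of its close relative Scd2. Male Sprague-Dawley rats (Crl:CD (SD)), 8 to 10 weeks old at the start, were gavaged once a day for 14 days with myclobutanil in corn oil at 30, 150 or 400 mg/kg, or with corn oil alone as the vehicle, at 4 ml/kg in every group. Poly(A) RNA of liver and testis was sequenced, 6 libraries for each dose and tissue, 48 in all. The labels do not say whether a library is 1 animal, and p-values measure the spread between these libraries.

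Fatty acid synthesis turns surplus carbohydrate into fat, and liver is a main site of it in the rat. Citrate leaving the mitochondrion is split to acetyl-CoA by ATP citrate lyase (Acly), acetyl-CoA carboxylase 1 (Acaca) makes malonyl-CoA from it in the committed step, and fatty acid synthase (Fasn) builds palmitate. Stearoyl-CoA desaturase (Scd) then puts a double bond into saturated fatty acids, and the transcription factor SREBP-1, made from Srebf1, drives transcription of the enzyme genes when insulin or the liver X receptor is active.

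RefSeq (build GRCr8) gives promoter windows, from 250 bases before to 50 bases after a start site, for 3 of the members, and 1 of them has 2 start sites. The plan was to print windows of members whose liver level passed the test. Those members, Acaca and Fasn, have no window, and the 3 members printed did not pass. They are printed because liver levels of members, most closely Acly, Acaca and Scd, moved together between libraries, as described further on. Srebf1 passed there in its pair with Scd only, and what makes the levels move together was not tested. Capitals mark matches, on either strand, to any of 4 searched motifs: TCACNCCAC, a form of the sterol regulatory element bound by SREBP, CACGTG, an E-box, CCAAT, the NF-Y box, which reads ATTGG on the other strand, and GGGCGG, the GC box bound by Sp1, which reads CCGCCC on the other strand. All 4 windows lie on the minus strand and are written 5′ to 3′ in the direction of the gene, in the order Scd (chr1:253231682-253231981), the first and second Srebf1 starts (chr10:45529115-45529414 and chr10:45518961-45519260) and Acly (chr10:85963582-85963881).
Scd: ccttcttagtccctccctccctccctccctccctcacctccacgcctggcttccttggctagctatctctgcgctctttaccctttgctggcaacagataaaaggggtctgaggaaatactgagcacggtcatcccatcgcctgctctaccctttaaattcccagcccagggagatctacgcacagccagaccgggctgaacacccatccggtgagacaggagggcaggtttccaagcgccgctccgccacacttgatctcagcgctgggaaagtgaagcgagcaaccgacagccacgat
Srebf1 start 1: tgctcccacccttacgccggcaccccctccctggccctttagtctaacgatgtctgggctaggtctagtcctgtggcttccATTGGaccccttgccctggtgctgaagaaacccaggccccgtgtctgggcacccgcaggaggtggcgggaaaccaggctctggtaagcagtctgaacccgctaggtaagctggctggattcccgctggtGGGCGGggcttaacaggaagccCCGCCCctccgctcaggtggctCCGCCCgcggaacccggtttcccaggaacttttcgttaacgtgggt
Srebf1 start 2: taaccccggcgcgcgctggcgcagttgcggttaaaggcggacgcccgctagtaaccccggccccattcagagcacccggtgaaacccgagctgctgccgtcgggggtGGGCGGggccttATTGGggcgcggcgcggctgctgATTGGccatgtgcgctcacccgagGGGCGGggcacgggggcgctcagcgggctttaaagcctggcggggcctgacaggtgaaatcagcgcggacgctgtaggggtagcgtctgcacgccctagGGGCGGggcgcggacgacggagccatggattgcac
Acly: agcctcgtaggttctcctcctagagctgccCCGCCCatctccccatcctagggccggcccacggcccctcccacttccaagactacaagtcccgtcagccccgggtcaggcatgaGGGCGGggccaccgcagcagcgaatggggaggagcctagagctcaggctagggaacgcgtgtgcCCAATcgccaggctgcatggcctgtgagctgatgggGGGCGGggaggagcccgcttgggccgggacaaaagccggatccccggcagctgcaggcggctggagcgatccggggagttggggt
The GC box was matched 3 times in each Srebf1 window and 3 times in the Acly window, and it was present in 33.1% of all 33469 windows of this length. CCAAT was matched 1 time and 2 times in the Srebf1 windows and 1 time in the Acly window, and it was present in 37.5% of all windows. No match overlapped a match to another motif. The Scd window held none of the 4 motifs, and TCACNCCAC (1.12% of all windows) and CACGTG (6.42%) were in none of the 4 windows. A match in such a window is a string of letters, not a binding site, and its absence says nothing of binding elsewhere.

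Each library held 31.8 to 49.1 M reads assigned to genes in liver and 30.9 to 49.2 M in testis. The libraries fell into 3 sets by depth and mapping quality, which the labels do not name. In each tissue, 5 libraries at 30 mg/kg and 5 from vehicle made up the first set, 5 at 400 and 5 at 150 mg/kg the second, and the third, the deepest, 1 library of each dose, so that 400 mg/kg and vehicle share a set in 1 library each. The labels of testis 2407 and 2408 give vehicle and a dose of 0 in some fields and myclobutanil as the exposure in another, and both were kept as vehicle. Levels are CPM, reads per 1000000 gene reads (1 M), scaled by trimmed mean of M values within a tissue, and levels of different genes are not compared because gene lengths were not used. All 5 members passed the filter on low counts in both tissues. Differences are log2 fold changes with a standard error (SE), called at a Benjamini-Hochberg adjusted p under 0.05 in edgeR's quasi-likelihood test over all genes.

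In liver, 2 of the 5 members rose at 400 mg/kg against vehicle, Fasn and Acaca, where 19.6% of 13275 genes were called and 9.97% were called as higher. Their median log2 fold change over the 5 members was 0.43, beside -0.01 over all genes tested. At 150 and 30 mg/kg no member was called, with adjusted p of 0.436 to 0.850 and of 0.962 or more, while 1.49% and 0.0151% of all genes were called. At an unadjusted p under 0.05 the members numbered 3 at 400 mg/kg and 0 at each lower dose, and DESeq2 also called 2 at 400 mg/kg and 0 at each lower dose. In bulk tissue, a change in the number of cells of a type and a change in RNA per cell cannot be told apart.

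**Figure D1:**
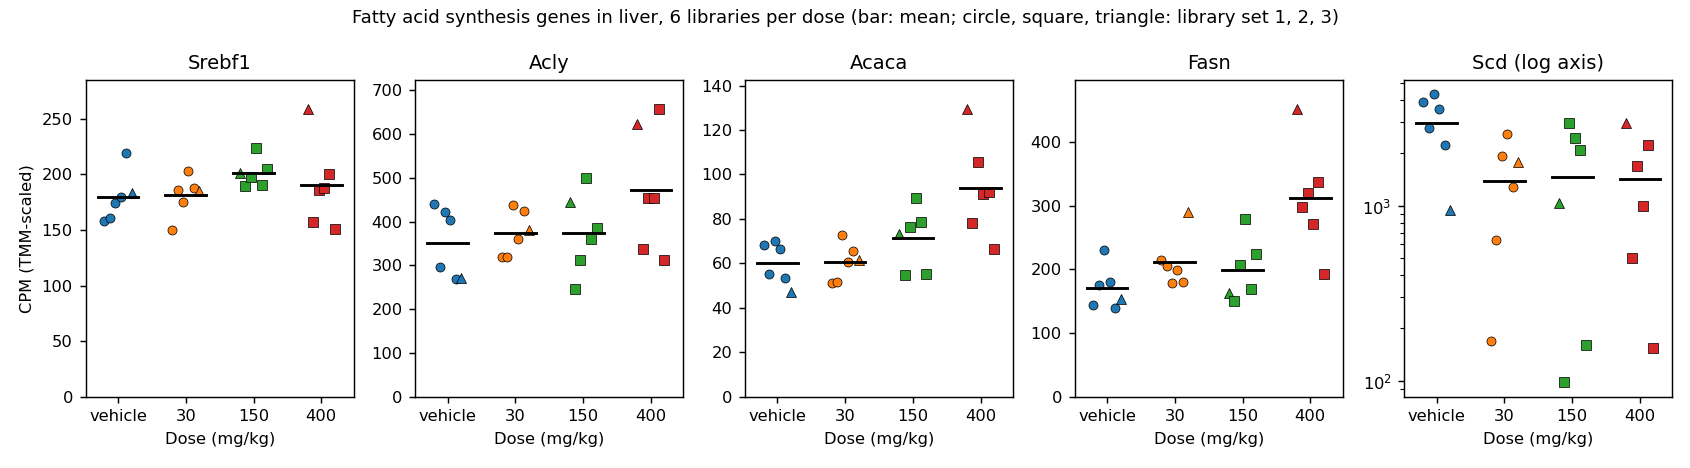
Liver levels of the 5 genes in each library (CPM, on a log axis for Scd only), by dose. Points are libraries, shaped by library set, and bars are means of 6 libraries. Fasn and Acaca sit highest at 400 mg/kg, Srebf1 means lie between 179 and 201 CPM, and Scd ranges from 97.9 to 4320 CPM.

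Srebf1, the regulator, did not pass the test at any dose in liver. It averaged 179 ± 21.9 CPM in vehicle livers, 181 ± 17.6 CPM at 30 mg/kg, 201 ± 12.6 CPM at 150 mg/kg and 190 ± 38.7 CPM at 400 mg/kg (SD, n = 6 each). The lowest, median and highest library had 151, 187 and 259 CPM at 400 mg/kg, against 158, 177 and 219 CPM in vehicle, so the vehicle range lay inside the 400 mg/kg range. At 400 mg/kg the log2 fold change was 0.09 (SE 0.102, 95% interval -0.12 to 0.30, adjusted p = 0.606 by edgeR). At 150 mg/kg it was 0.17 and all 6 libraries lay above the vehicle mean, with an adjusted p of 0.452. At 30 mg/kg it was 0.01. The files count Srebf1 as 1 gene, so the isoforms from its start sites are not told apart.

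Acly, which supplies acetyl-CoA from citrate, had its highest levels at 400 mg/kg but did not pass the test. The lowest, median and highest library had 312, 454 and 659 CPM at 400 mg/kg, against 268, 349 and 441 CPM in vehicle. The groups averaged 350 ± 80.3 CPM in vehicle livers, 374 ± 50.8 CPM at 30 mg/kg, 375 ± 90.6 CPM at 150 mg/kg and 473 ± 143 CPM at 400 mg/kg (SD, n = 6 each). Of the 6 libraries at 400 mg/kg, 4 lay above the vehicle mean. Its difference on the log2 scale was 0.43 (SE 0.189, 95% interval 0.04 to 0.82, unadjusted p = 0.0312, adjusted p = 0.111 by edgeR). Without library 2426, the lowest of the 400 mg/kg livers, it was 0.53 and was called at an adjusted p of 0.0492, while leaving out each other library in turn gave no call and values down to 0.32 (adjusted p = 0.268, without library 2425). At 150 and 30 mg/kg it was 0.10 and 0.09.

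Acaca, the carboxylase of the committed step, rose at 400 mg/kg. The lowest, median and highest library had 66.6, 91.7 and 130 CPM at 400 mg/kg, against 47.0, 60.8 and 70.2 CPM in vehicle. All 6 libraries at 400 mg/kg lay above the vehicle mean, and the groups overlapped only in that the lowest 400 mg/kg library, 2426, fell below the highest vehicle libraries. The groups averaged 60.1 ± 9.53 CPM in vehicle livers, 60.5 ± 8.28 CPM at 30 mg/kg, 71.2 ± 13.7 CPM at 150 mg/kg and 93.9 ± 22.0 CPM at 400 mg/kg (SD, n = 6 each). The log2 fold change at 400 mg/kg was 0.64 (SE 0.147, adjusted p = 0.00341 by edgeR), a 1.56-fold rise. At 150 mg/kg it was 0.25 (adjusted p = 0.436) and at 30 mg/kg 0.01.

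Fasn, the synthase itself, rose at 400 mg/kg. It had the largest positive log2 fold change of the 5 in the fit without the library set. The margin over Acaca was not tested. The lowest, median and highest library had 193, 309 and 453 CPM at 400 mg/kg, against 140, 164 and 230 CPM in vehicle. All 6 libraries at 400 mg/kg lay above the vehicle mean, and library 2426 at 400 mg/kg lay below the highest vehicle library. The group means were 171 ± 33.2 CPM in vehicle livers, 211 ± 41.0 CPM at 30 mg/kg, 198 ± 48.3 CPM at 150 mg/kg and 312 ± 85.6 CPM at 400 mg/kg (SD, n = 6 each). The log2 fold change at 400 mg/kg was 0.87 (SE 0.179, adjusted p = 0.00145 by edgeR), a 1.83-fold rise. The lower doses gave 0.22 at 150 mg/kg (adjusted p = 0.598) and 0.31 at 30 mg/kg (adjusted p = 0.962), where all 6 libraries lay above the vehicle mean and library 2414, at 289.8 CPM, stood highest.

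The calls at 400 mg/kg held without each of the 12 libraries in turn, with adjusted p of 0.00104 to 0.0110 for Acaca and of 0.000297 to 0.00475 for Fasn. With the library set as a term in the fit, 7.05% of all genes were called. The term parted the first set from all later libraries, and did not part the later sets from each other. The same split was used wherever the set was a term or was subtracted. Vehicle has 1 library outside the first set. With this term Acaca had a log2 fold change of 0.80 (adjusted p = 0.0397) and Fasn had 0.68 (adjusted p = 0.157). In that fit Acaca stood above Fasn, and for Fasn the dose and the library sets cannot be told apart. Of the pair in the third set, library 2421 at 400 mg/kg had 130 CPM of Acaca and 453 CPM of Fasn, against 47.0 and 154 CPM in the vehicle library 2408.

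Against 150 mg/kg, where 5% of all genes were called and 2.65% were called as higher, Fasn was the 1 member called at 400 mg/kg. The fold change was 0.65 on the log2 scale (SE 0.178, adjusted p = 0.0359), with 5 of the 6 libraries above the 150 mg/kg mean. The 5 and 5 libraries of the second set alone gave 0.47 (adjusted p = 0.226). Leaving out any 1 of 7 libraries (2415, 2416, 2417 or 2419 at 150 mg/kg, 2421, 2423 or 2425 at 400 mg/kg) ended the call, with log2 fold changes of 0.52 to 0.67 and adjusted p of 0.0579 to 0.0836. Acaca had 0.40 (adjusted p = 0.115), Acly 0.33 (adjusted p = 0.323), Srebf1 -0.08 and Scd -0.04.

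**Figure D2:**
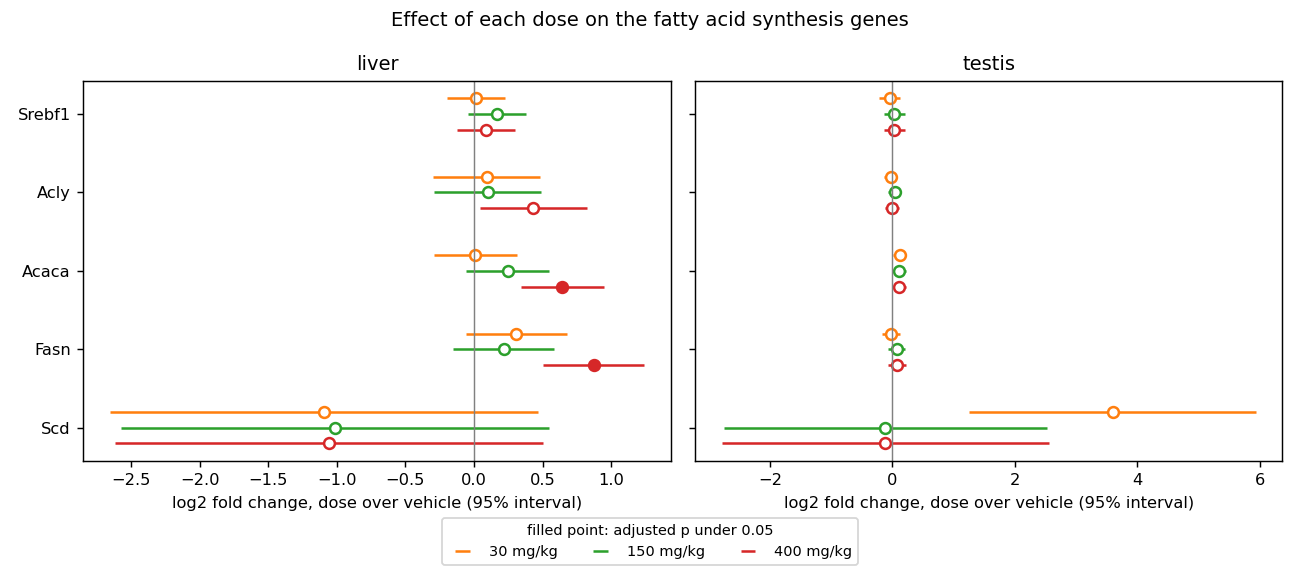
Log2 fold changes of each dose over vehicle, with 95% intervals from edgeR, in liver and in testis (6 libraries a group). Filled points passed an adjusted p of 0.05, which only Acaca (0.64) and Fasn (0.87) did, in liver at 400 mg/kg. The intervals of Scd are the widest in both tissues.

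Scd, the desaturase, varied far more between livers of the same dose than the other members. Its lowest, median and highest library had 948, 3166 and 4320 CPM in vehicle livers, 169, 1525 and 2556 CPM at 30 mg/kg, 97.9, 1552 and 2974 CPM at 150 mg/kg and 153, 1332 and 2972 CPM at 400 mg/kg. The ranges of all 4 groups overlapped, and the 24 livers spanned 44.1-fold. The means were 2953 ± 1242 CPM in vehicle livers, 1386 ± 877 CPM at 30 mg/kg, 1461 ± 1210 CPM at 150 mg/kg and 1417 ± 1069 CPM at 400 mg/kg (SD, n = 6 each).

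Scd did not pass the test at any dose in liver. Its log2 fold change was -1.06 at 400 mg/kg (SE 0.750, 95% interval -2.62 to 0.50, adjusted p = 0.350), -1.01 at 150 mg/kg (adjusted p = 0.552) and -1.09 at 30 mg/kg (adjusted p = 0.976), by edgeR. Libraries above the vehicle mean numbered 1 of 6 at 400 mg/kg, 1 of 6 at 150 mg/kg and 0 of 6 at 30 mg/kg. Levels under 1000 CPM were seen in 8 of the 24 livers, 1 in vehicle, 2 at 30 mg/kg, 2 at 150 mg/kg and 3 at 400 mg/kg.

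Within dose groups the SD of liver log2 CPM was 1.57 for Scd, which ranked 36 from the top among 11289 genes with a mean of at least 1 CPM. It was 0.345 for Acly, 0.321 for Fasn, 0.268 for Acaca and 0.184 for Srebf1, and the median over these genes was 0.162. Genes with a larger SD than Acly made up 12.2%, than Fasn 14.5%, than Acaca 21.4% and than Srebf1 41.7%. All 4 enzyme genes thus stood above the median gene in spread, and Srebf1 lay close to it.

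**Figure D3:**
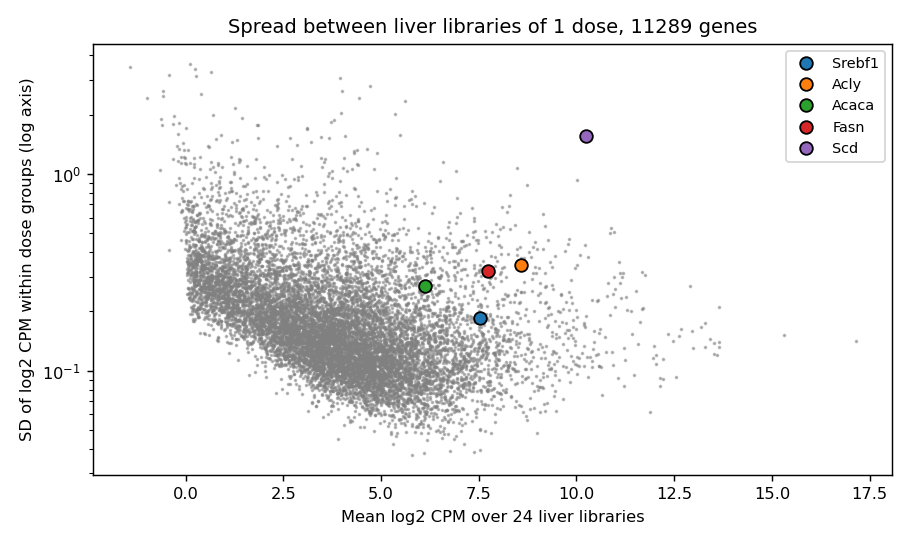
SD of log2 CPM between libraries of the same dose (log axis) against mean log2 CPM, for 11289 genes in 24 livers. Grey points are all genes and coloured points the 5 members. Scd, at an SD of 1.57, stands far above genes of a like level, and the other 4 lie between 0.184 and 0.345.

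The members varied together between livers, most closely Acly, Acaca and Scd. After each dose group's mean was subtracted from log2 CPM, all 10 pairs of members had a positive Pearson r over 24 livers, from 0.439 to 0.869, and 5 pairs passed an adjusted p of 0.05 (permutation within dose groups, 2-sided, adjusted over 20 pairs of both tissues). The closest pair was Acaca and Scd, with r of 0.869 (p = 1e-05, the smallest these permutations can give, adjusted p = 0.0002) and Spearman rho of 0.828 (adjusted p = 0.0002). Without libraries 2426 and 2421, the farthest from the median of Acaca, their r was 0.850. Of the 11284 other genes at 1 CPM or more, 0 had a higher r with Scd than Acaca had, and 1 had a higher r with Acaca than Scd had.

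Acly varied with both of these genes. Acly and Acaca had r of 0.790 (adjusted p = 0.0008, rho 0.757) and 0.718 without libraries 2416 and 2426, and Acly and Scd had r of 0.663 (adjusted p = 0.00505, rho 0.606) and 0.509 without the same libraries. Pairs with Fasn or Srebf1 had lower values. Srebf1 with Acly, Acaca and Fasn had r of 0.439, 0.467 and 0.465, and Fasn with Scd had 0.463, and none of these passed. Without libraries 2421 and 2426 they were 0.215, 0.142, 0.110 and 0.277. For each gene of these pairs, 143 to 517 of the 11284 other genes had a higher r with it than its partner had. Acly and Fasn had r of 0.545 (adjusted p = 0.0489 by permutation), which was 0.378 without libraries 2416 and 2426. Srebf1 and Scd had 0.496 (adjusted p = 0.0391 by permutation), which was 0.341 without 2421 and 2426. Leaving out the libraries farthest from the median of a gene narrows its range, so r can fall for that reason alone. More closely related than the partner were 118 other genes with Acly and 37 with Fasn, and 215 with Srebf1 and 324 with Scd. Srebf1 and Scd thus passed with ranks like those of the pairs that did not. The share of all gene pairs that would pass was not worked out. By Spearman rho 3 pairs passed, all among Acly, Acaca and Scd, and the same 3 passed by Pearson r without the third library set, where Acaca and Scd had 0.872. Fasn and Acaca, the genes that rose at 400 mg/kg, had r of 0.524 (adjusted p = 0.0563) and 0.277 without libraries 2426 and 2421, and passed with the library set subtracted as well (r = 0.582, adjusted p = 0.0263).

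Some livers were low or high for all or most of the genes, and others were not. At 400 mg/kg, library 2426 was the lowest of its group for all 5 genes, with 151 CPM of Srebf1, 312 of Acly, 66.6 of Acaca, 193 of Fasn and 153 of Scd. Library 2421 was the highest of its group for 4 of them, with 259 CPM of Srebf1, 130 of Acaca, 453 of Fasn and 2972 of Scd, and its 624 CPM of Acly came just under the 659 CPM of library 2425. At 150 mg/kg, library 2416 was the lowest for all 5 genes, with 97.9 CPM of Scd and 54.9 of Acaca. Library 2420 of the same dose had 161 CPM of Scd, next to the lowest, but 205 CPM of Srebf1 and 224 CPM of Fasn, both next to the highest. In vehicle, library 2407 had the highest Srebf1 (219 CPM) with the lowest Acly (268 CPM) and Fasn (140 CPM). Library 2403 had the highest Acly (441 CPM) with the lowest Srebf1 (158 CPM).

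**Figure D4:**
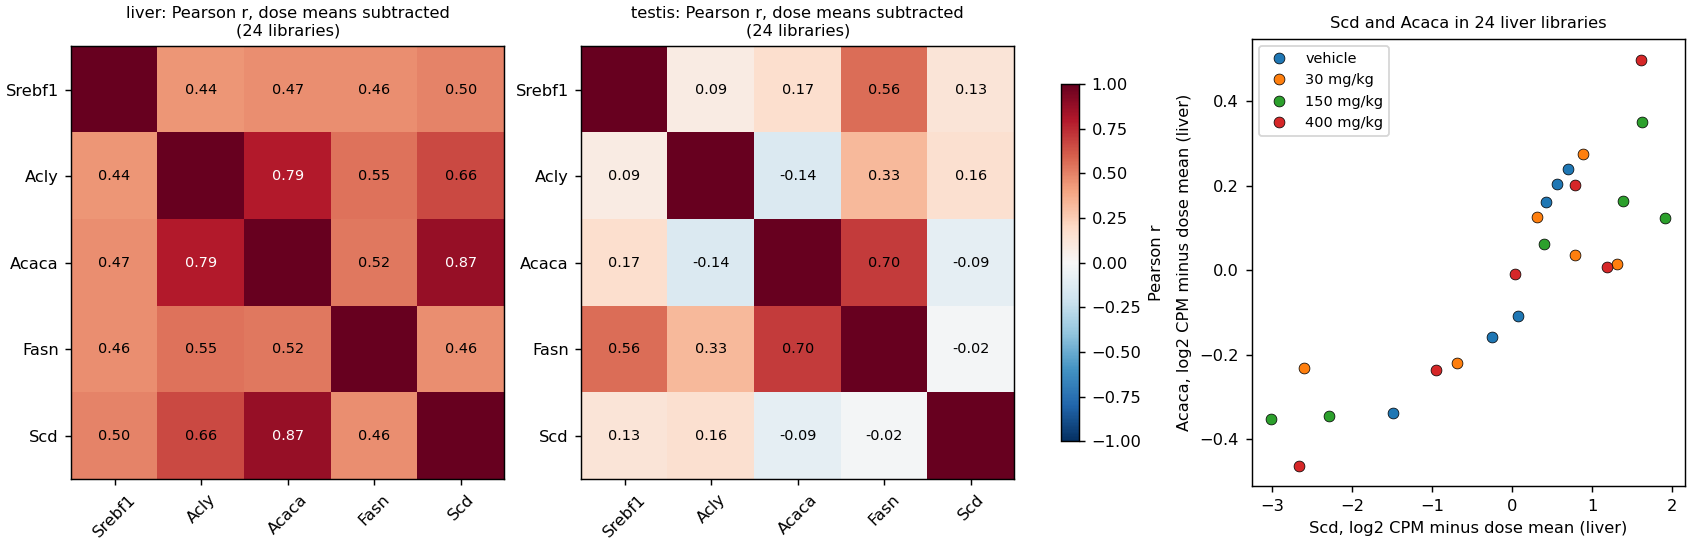
Pearson r between members over 24 livers and over 24 testes after subtraction of dose means, and the liver values of Acaca against Scd (log2 CPM minus the dose mean), coloured by dose. In liver all 10 values are positive and Acaca with Scd is highest at 0.87, while in testis they run from -0.14 to 0.70.

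In testis no member passed the test at any dose, and the 4 members other than Scd had group means close together. At 400 mg/kg against vehicle 0 of the 5 members were called by edgeR (0 at an unadjusted p under 0.05, 0 by DESeq2), while 3.32% of 17261 genes were called. At 150 mg/kg, at 30 mg/kg and between 400 and 150 mg/kg, 0 members were called by edgeR (0, 2 and 0 at an unadjusted p under 0.05, and 0 by DESeq2), while 0.0232%, 0.00579% and 0.776% of genes were called. With the library set as a term, 1 of the 17261 genes was called at 400 mg/kg against vehicle and 0 at each lower dose. Between 400 and 150 mg/kg that fit called 128 genes. Srebf1 averaged 13.3 ± 1.89 CPM in vehicle testes, 12.9 ± 0.710 CPM at 30 mg/kg, 13.6 ± 1.50 CPM at 150 mg/kg and 13.6 ± 1.38 CPM at 400 mg/kg (SD, n = 6 each). Acly averaged between 54.4 and 56.9 CPM and Fasn between 48.7 and 51.9 CPM in the 4 groups. Acaca had 80.1 ± 5.22 CPM in vehicle testes, 86.7 ± 6.68 CPM at 30 mg/kg, 86.3 ± 6.35 CPM at 150 mg/kg and 86.1 ± 2.17 CPM at 400 mg/kg. Its ranges overlapped between groups, at 83.9 to 89.4 CPM for 400 mg/kg against 72.4 to 87.2 CPM for vehicle.

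Over these 4 genes and 4 comparisons, log2 fold changes ran from -0.04 to 0.12 and adjusted p from 0.268 to 0.996. The 95% intervals of all 16 lay between -0.22 and 0.22, and a rise of the size Fasn and Acaca showed in liver was outside them. These intervals come from the fit without the library set, so they carry no uncertainty from the sets. In the alternative fits with no single library left out, the set as a term among them, the 400 mg/kg values were 0.10 to 0.13 for Acaca and 0.03 to 0.13 for Fasn. The 1 comparison with an unadjusted p under 0.05 was Acaca at 30 mg/kg (log2 fold change 0.12, adjusted p = 0.435 by edgeR). At 400 mg/kg the log2 fold changes were 0.11 for Acaca, 0.07 for Fasn, 0.03 for Srebf1 and -0.01 for Acly.

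**Figure D5:**
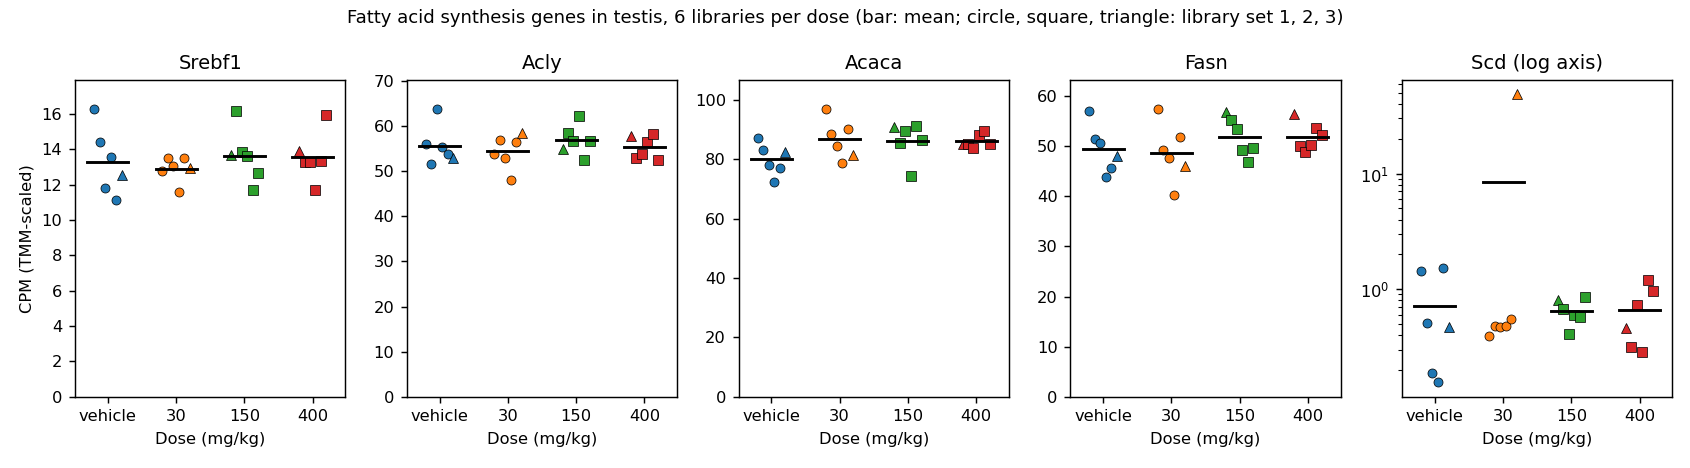
Testis levels of the 5 genes in each library (CPM, on a log axis for Scd only), by dose. Points are libraries, shaped by library set, and bars are means of 6 libraries. The means of each of the first 4 genes lie close together, and Scd lies between 0.156 and 1.54 CPM except in 1 library at 30 mg/kg with 48.7 CPM.

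Scd was near the limit of counting in testis, with 5 to 50 reads (0.156 to 1.54 CPM) in 23 of the 24 libraries. Library 2414, at 30 mg/kg, had 2211 reads or 48.7 CPM, 31.7 times the highest of the others. The liver library with this number, at 1773 CPM, was within the range of its group. Library 2414 is the 30 mg/kg testis library of the deepest set, and it is the 1 testis library with genes more than 10 times above all the others: 4 genes of 17261 at 1 CPM or more, Scd among them, against 0 in each of the other 23. Scd at 30 mg/kg gave 3.59 on the log2 scale (SE 1.12, unadjusted p = 0.00439, adjusted p = 0.261 by edgeR), and it was -0.58 without library 2414 and -0.69 in the first set alone. At 400 mg/kg it was -0.12 (SE 1.28, adjusted p = 0.978), and -4.70 with the library set as a term (adjusted p = 0.280).

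In testis 2 of the 10 pairs passed, Acaca with Fasn (r = 0.697, rho 0.668, adjusted p = 0.00505, 0.683 without libraries 2418 and 2409) and Srebf1 with Fasn (r = 0.557, rho 0.569, adjusted p = 0.0180, 0.431 without libraries 2403 and 2407). Scd, at so few reads, had r between -0.09 and 0.16 with the other members. The pair closest in liver, Acaca with Scd, had -0.09 in testis, and Acly with Acaca had -0.14. The difference in r between the tissues was not tested.

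The top-dose effect was set between the tissues in a fit of all 48 libraries, where 8.36% of 18221 genes differed. This fit took no account of the title numbers that liver and testis libraries share. A fit with them as a block is given further on. The log2 fold change at 400 mg/kg was larger in liver than in testis by 0.83 for Fasn (SE 0.199, adjusted p = 0.00461) and by 0.57 for Acaca (SE 0.158, adjusted p = 0.0154). For Acly the difference was 0.47 (SE 0.202, adjusted p = 0.152), for Srebf1 0.08 (adjusted p = 0.883) and for Scd -0.90 (SE 1.70, adjusted p = 0.907). With the library set as a term, 2.63% of genes differed and 0 members did, with 0.50 for Fasn (adjusted p = 0.446) and 0.63 for Acaca (adjusted p = 0.168), so for these genes the tissue difference and the library sets cannot be told apart.

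Without compound, all 5 genes were called as higher in liver than in testis in the main fit, though the call of Acaca was lost in other fits, as given below. Of the 18221 genes tested 94.1% differed, and the median log2 fold change of all genes was -0.74. On the scale of the 48 libraries Scd had 3677 ± 1502 CPM in vehicle livers and 0.563 ± 0.484 CPM in vehicle testes (SD, n = 6 each). Srebf1 had 225 ± 29.0 CPM in livers and 10.5 ± 1.50 CPM in testes, and Acly had 439 ± 94.6 CPM in livers and 43.8 ± 3.53 CPM in testes. Fasn had 214 ± 38.4 CPM in livers and 39.0 ± 3.68 CPM in testes. The livers and testes did not overlap for these 4 genes, whose log2 fold changes were 12.67 for Scd (SE 1.31), 4.42 for Srebf1, 3.32 for Acly and 2.46 for Fasn, or 13.41, 5.16, 4.06 and 3.19 relative to the median gene.

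Acaca was the exception among the 5. It had 75.3 ± 10.6 CPM in vehicle livers and 63.1 ± 3.97 CPM in vehicle testes, with overlapping ranges, and its log2 fold change came to 0.25 (edgeR, SE 0.112, adjusted p = 0.0302), or 0.99 relative to the median gene. The call was lost with relative log expression size factors in edgeR (0.06, adjusted p = 0.607), in DESeq2 itself (0.06, adjusted p = 0.733), with no filter on low counts (0.23, adjusted p = 0.0599) and without libraries 2407 and 2408 (0.25, adjusted p = 0.0654). Leaving out 1 library ended it in 5 of 12 cases (liver 2403, 2405 or 2406, testis 2406 or 2407, adjusted p of 0.0509 to 0.0801).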

How the data were processed

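Libraries were made with the TruSeq stranded mRNA kit, per the labels' protocols. The submitters' processing notes name CASAVA 1.8, HISAT2 and HTSeq 0.6.1. No source used here gives the genome build or says how strand was treated. The authors deposited raw counts of reads per Ensembl gene, with 5 lines that belong to no gene, which held 39.8 to 46.1% of the total in liver and 34.9 to 36.9% in testis and were left out. Reads of close relatives of a member can be lost or split in such counting.

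Each tissue's 24 libraries were fitted in edgeR 4.0.16 (R 4.3.3) with filterByExpr, trimmed mean of M values, robust quasi-likelihood fits and Benjamini-Hochberg adjustment over all genes tested, and all 48 libraries for the tissue comparisons. SE is the absolute log2 fold change over the square root of F, and intervals are 95%. Covariation used log2 CPM (prior count 2) and 100000 permutations within dose groups. The fits within a tissue were also run on simulated counts drawn without an effect of the library set, and their outcome is not reported here. The alternatives were DESeq2 1.42.0, relative log expression size factors, no filter, the 12 libraries compared, the library set as a term, each library left out, and, chosen after seeing the data, the first or second set alone. The sets were inferred from depth and mapping quality (liver sets parted at 38 M reads, testis sets at 2.7% of reads of low mapping quality, the third set above 42 M). As a term or when subtracted, the set parted only the first set from all later libraries. The members and lists were chosen with earlier results of these data known. All members are named. No table at hand pairs the files' identifiers with symbols, so lists of other pathway genes and of cell type markers were not analysed here.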

Additional observations from a re-analysis of the deposited data

Results flagged for a closer look

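Of 40 tests for a library far from the rest of its group of 6 (Dixon's test), 5 passed, where chance gives about 1 in 20. Scd in testis library 2414 at 30 mg/kg had 48.7 CPM, with the next at 0.549 CPM. Fasn in liver library 2414 at 30 mg/kg had 289.8 CPM, with the next at 214 CPM. Acaca in testis library 2418 at 150 mg/kg had 74.2 CPM, with the next at 85.4 CPM. Acly in the vehicle testis library 2405 had 63.9 CPM, with the next at 56.0 CPM, and Srebf1 in testis library 2412 at 30 mg/kg had 11.6 CPM, with the next at 12.8 CPM.

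The log2 fold change at 400 mg/kg differed between the tissues for 2 members by a test of the interaction, with liver above testis by 0.57 for Acaca and by 0.83 for Fasn. With the library set as a term 0 members differed (0.63, adjusted p = 0.168, for Acaca and 0.50, adjusted p = 0.446, for Fasn), so the tissue difference and the sets cannot be told apart.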

How the results depend on the processing

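The count of members called in liver at 400 mg/kg was 2 in every fit but 2: it was 1, Acaca, with the library set as a term, and 3, with Acly, without library 2426. Against 150 mg/kg the 1 call, Fasn, became 0 with no filter (0.66, adjusted p = 0.0661), with only the 12 libraries compared (0.66, adjusted p = 0.0956) and with only the second set, and ranged from 0 to 1 with 1 library left out. The tissue difference at 400 mg/kg went from 2 members to 0 with the set as a term. Covariation in liver passed for 5 pairs, for 3 without the third set, and for 6, with Acaca and Fasn, with the set subtracted as well. The causes were not tested. Counts in testis stayed at 0 in all fits, and DESeq2 gave no adjusted p for Scd there.

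Uncalled values changed sign in a few fits. These were Acaca in liver at 30 mg/kg in the first set alone (-0.056), Scd in testis at 30 mg/kg in the first set alone (-0.69), Srebf1 and Scd in testis at 400 mg/kg without vehicle 2407 and 2408 (-0.046 and 0.18), and Srebf1 and Scd in the tissue difference with the set as a term (-0.059 and 3.20). With 1 library left out, Srebf1 in liver ran from -0.022 to 0.15 at 400 mg/kg and from -0.020 to 0.080 at 30 mg/kg, Acaca in liver at 30 mg/kg from -0.051 to 0.060, and Scd in liver at 400 against 150 mg/kg from -0.40 to 0.29. In testis at 400 mg/kg Srebf1 ran from -0.020 to 0.098, Acly from -0.029 to 0.037 and Scd from -0.37 to 0.25, Scd at 30 mg/kg from -0.58 to 3.96, and Srebf1 in the tissue difference from -0.038 to 0.14. Without liver library 2426, Acly was called in the tissue difference (0.57, adjusted p = 0.0489).

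Liver and testis libraries share title numbers. Their deviations from the group means, over 24 pairs and 10072 genes, correlated at 0.0351 to 0.239 (median 0.141), with 19 pairs over 0.1 and 23 of 24 libraries closest to their own number, a hint from the data and not the design. With that number as a replicate block, the tissue difference at 400 mg/kg kept 2 calls, Acaca at 0.54 (adjusted p = 0.040) and Fasn at 0.80 (adjusted p = 0.011), and the vehicle comparison kept 5. Within a tissue, doses share no number and no paired analysis was possible.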

Other observations

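Over all 24 livers, with dose means left in, 11 of 11284 other genes had a Pearson r of 0.8 or more with Acaca and 6 had -0.8 or less. With the same limit Scd had 1 such gene and Srebf1, Acly and Fasn had 0, with a highest r of 0.722 for Srebf1, 0.756 for Acly and 0.791 for Fasn. With dose means subtracted the genes at 0.8 or more numbered 5 for Scd, 3 for Acaca, 2 for Acly and 0 for Srebf1 and Fasn. These are descriptions of 1 set of libraries, which share depth and library set with dose.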
